A study of Mus musculus with 16 samples.

Results

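The 44 genes described here are the Wnt ligands, their receptors, their secreted antagonists and 3 proteins that act inside the cell, measured on microarrays in mouse embryonic stem (ES) cells. They were chosen by a rule on gene symbols: every numbered Wnt, Fzd, Dkk and Sfrp gene, with Lrp5, Lrp6, Axin1, Axin2, Lef1, Frzb and Wif1, that had a probe set annotated to 1 symbol. The choice was made with earlier results of these data known. Tcf7, also in that rule, was not analysed here. The set holds 19 ligands, 12 receptors (10 Frizzled genes, Lrp5 and Lrp6), 10 antagonists and 3 intracellular genes, out of 18193 genes in all. For each gene the probe set with the highest mean log2 intensity over the 16 arrays stood for it, and 27 of the 44 genes had more than 1 to choose from.

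The study compared ES cells with and without Rybp, a subunit of variant Polycomb repressive complex 1 that binds the Ring1 proteins. The cells were clones 10 and 15 of a 129/B6 hybrid background. KO cells had been given 4-hydroxytamoxifen (OHT) at 800 nM for 24 hours to remove Rybp, and control cells of the same clones, labelled wild-type, had not. RNA was sampled at day 4 and at day 12, which gave control and KO groups at each day with 4 arrays per group, 2 from each clone. OHT was absent from every control, so its own effects and those of Rybp loss cannot be told apart. The medium held fetal bovine serum and ESGRO, a leukaemia inhibitory factor that keeps ES cells pluripotent. Some cultures had irradiated fibroblast feeders and others gelatin, and the labels do not say which. Whether replicates were separate cultures is not stated in the labels, and p-values then reflect array-to-array spread that can include technical spread.

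Wnt ligands are secreted lipid-modified proteins that bind Frizzled receptors on the cell surface. With the co-receptors Lrp5 and Lrp6 they stabilise beta-catenin, which joins Tcf and Lef proteins on DNA, while other ligands act on cell polarity and movement without beta-catenin. Dkk proteins, apart from Dkk3, block the Lrp co-receptors, and Sfrp proteins, Frzb and Wif1 bind the ligands outside the cell. Axin proteins are the scaffold on which beta-catenin is marked for destruction, and Axin2 and Lef1 are themselves known targets of the pathway. In mouse ES cells Wnt/beta-catenin activity is known to support self-renewal.

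Values are the deposited linear intensities, and fold changes are differences of log2 intensity with their standard error. A gene was taken as called, and is said to have risen or fallen, at an adjusted p under 0.05. Intensities of different probe sets are not set against each other. The targeted gene followed the labels on probe set 1421111_at, annotated to Rybp and to its pseudogene. That probe set read 2047 to 3435 on the 8 control arrays and 84.95 to 255.7 on the 8 KO arrays. The other Rybp probe set, 1428219_at, went the other way, at 157 to 2771 on the control and 2815 to 7612 on the KO arrays. Its log2 differences of 2.82 ± 0.74 at day 4 and 2.95 ± 0.74 at day 12 did not pass (limma adjusted p = 0.154 and 0.0518). All 10 ES cell markers had group means above 28.3, the 25th percentile of intensity that serves as a floor below. Their summed intensity was 67388 to 91066 on the 16 arrays.

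Of the 44 genes, 25 had a group mean above the array median of 93.3 and 19 did not, and 3 of these (Dkk2, Wif1 and Wnt3) stayed under the floor in every group. The 25 held 7 ligands, 9 receptors, 6 antagonists and all 3 intracellular genes. The other 19 were 12 ligands, 3 receptors and 4 antagonists. Precision followed this split: the median SD between arrays was 0.41 on the log2 scale for the 25 genes and 1.16 for the other 19, against 0.43 over all entries. Standard errors of KO against control were 0.30 to 1.11 for the 12 dimmer ligands and 0.12 to 0.37 for the 9 brighter receptors.

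KO against control asked which genes differ once Rybp is removed. At day 4, 0 of the 44 genes passed by limma, with 7 at an unadjusted p under 0.05 beside 8.54% of all entries, and 0.627% of all 18195 entries were called, 0.566% higher and 0.0605% lower. With the replicate number as a block, 134 entries were higher and 44 lower in place of 103 and 11. The median log2 difference of the 44 genes was 0.11, beside 0.01 over all entries. At day 12, 2 of the 44 fell, Wnt5a and Fzd7, and 0 rose, with 7 at an unadjusted p under 0.05 beside 14.8% of all entries. There, 3.09% of all entries were called, 2.19% higher and 0.901% lower. The median log2 difference of the 44 genes at day 12 was 0.02, beside 0.01 over all entries. Of the 44 genes, 13 had the same sign in 4 of 4 pairs matched by clone and number at day 4 and 11 at day 12, where 25.9% and 31.5% of all entries did. The numbers were taken to pair the arrays at day 4 only. Pair counts at day 12 or between the days are therefore descriptions and give no paired support. Where 2 groups do not overlap, any matching gives 4 of 4. The test of whether the KO effect differed between the days called 0 of the 44, with 2 at an unadjusted p under 0.05 beside 4.57% of all entries, and 0.0% of all entries.

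**Figure D1:**
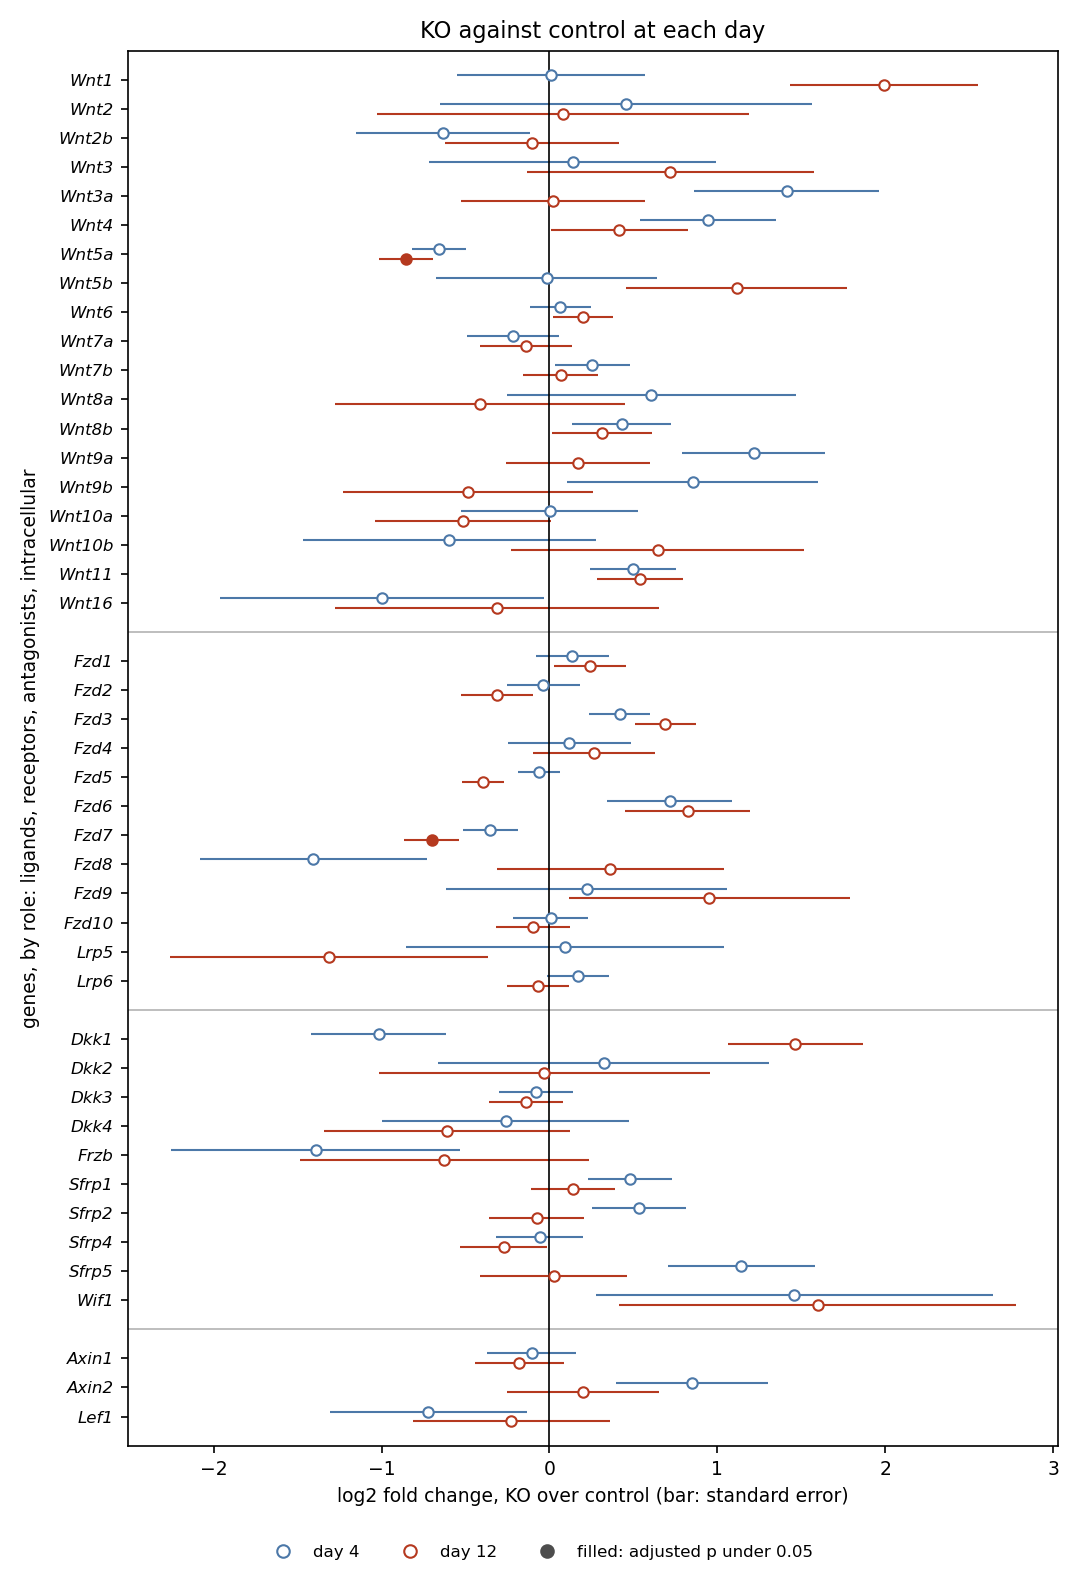
Log2 fold change of KO over control for the 44 genes at day 4 (blue) and day 12 (red), by role, with the standard error as a bar (4 arrays per group) and filled points at an adjusted p under 0.05. The only filled points are Wnt5a (-0.86) and Fzd7 (-0.70) at day 12, and the bars of many dim ligands span both sides of 0.

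Among the ligands, Wnt5a, known mainly for signalling that does not use beta-catenin, was lower in KO cells and lower at day 12. Every list of 4 arrays below gives both replicates of clone 10 and then both of clone 15, each in the order of their numbers. Control cells at day 4 read 280.2, 326, 228 and 162. KO cells at day 4 read 186, 159.6, 158 and 116. Control cells at day 12 read 121, 120.2, 123 and 113, and KO cells 77.6, 79.1, 55.9 and 55.2. At day 12 every KO array lay below every control array, and the 4 control arrays spanned a narrow range. At day 4 the control arrays were spread widely, from clone 10 down to clone 15 replicate 2, and overlapped the KO arrays.

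Wnt5a fell by 0.86 ± 0.16 on the log2 scale in KO cells at day 12 (limma adjusted p = 0.0116). It was lower in 4 of 4 pairs matched by clone and number, as any matching gives for groups without overlap. The difference was -0.66 ± 0.16 at day 4 (limma adjusted p = 0.116), also lower in 4 of 4 pairs, and the effects of the 2 days differed by -0.20 ± 0.22 (limma adjusted p = 1). At day 4 it passed with the replicate numbers of each day as a term (-0.66, limma adjusted p = 0.04897), with dim genes left out (limma adjusted p = 0.0479) and without control clone 15 replicate 2 (-0.80, limma adjusted p = 0.0399), where the range over all alternatives was 0.0399 to 0.9999. Another Wnt5a probe set, 1448818_at, gave -0.66 ± 0.16 at day 12 when every probe set was tested (limma adjusted p = 0.0647). The 2 dimmer ones, 1437673_at and 1456976_at, gave 0.20 ± 1.11 and -0.28 ± 0.47.

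**Figure D2:**
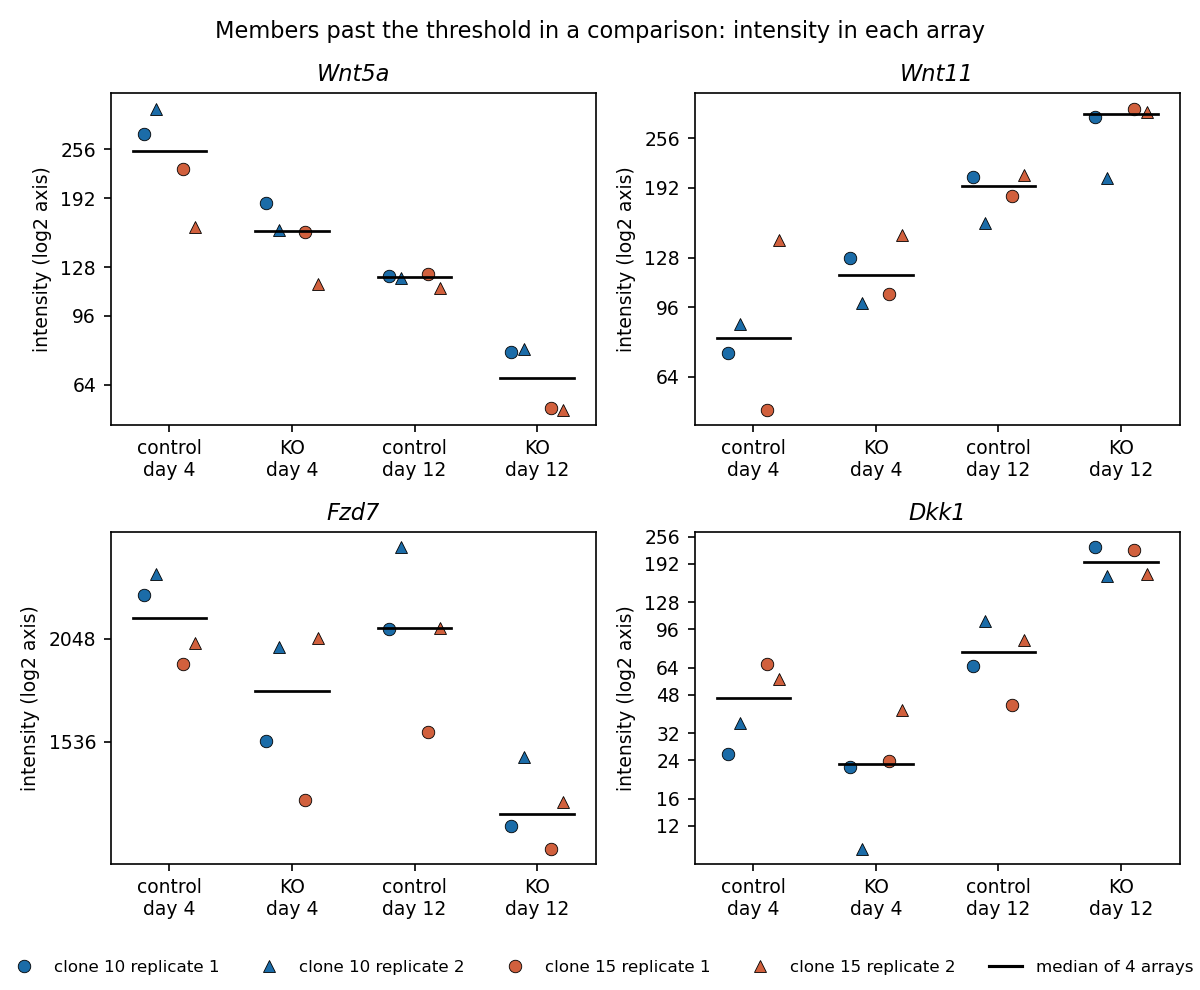
Intensity on each of the 16 arrays (log2 axis) for the 4 genes past the threshold in a comparison, with colour for clone, shape for replicate number and a line for the median of 4 arrays. Wnt5a steps down to 55.2 to 79.1 in KO cells at day 12, Wnt11 and Dkk1 are higher at day 12, and Fzd7 is lowest in KO cells at day 12 (1141 to 1472).

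Wnt11, a ligand known for polarity and cell movement, was higher at day 12 in both conditions. Control cells read 73.6, 87.2, 52.9 and 142 at day 4, and 204, 156, 184 and 207 at day 12. KO cells read 128, 98.5, 104 and 146 at day 4, and 290.4, 204, 304 and 299 at day 12. No array of day 12 overlapped one of day 4 within either condition. KO exceeded control in 4 of 4 pairs at each day, but the groups overlapped and neither difference passed (0.50 ± 0.26 at day 4 and 0.54 ± 0.26 at day 12, limma adjusted p = 0.656 and 0.352).

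The RefSeq promoter window of Wnt11 (GRCm38.p6, chr7:98834862-98835161, plus strand, 250 bases before the start to 50 after) is shown because Wnt11 rose from day 4 to day 12 in KO cells. Capitals mark the letters CTTTGA or, on the other strand, TCAAAG, 1 form of the core of the site that Tcf and Lef proteins bind. Other forms of that core, such as CTTTGT, were not looked for and are not marked.
Wnt11: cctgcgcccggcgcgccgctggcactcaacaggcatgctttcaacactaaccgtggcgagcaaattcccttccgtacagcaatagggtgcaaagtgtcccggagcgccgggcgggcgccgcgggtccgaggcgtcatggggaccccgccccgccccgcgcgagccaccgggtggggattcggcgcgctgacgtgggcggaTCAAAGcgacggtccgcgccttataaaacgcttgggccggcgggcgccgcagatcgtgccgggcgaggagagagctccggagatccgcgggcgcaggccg
This window has 1 match, beginning 50 bases before the start, and holds 45 CG pairs, where the median over all 32851 windows was 7. The second Wnt11 window, chr7:98838595-98838894, has none of these letters. Windows were found for 29 of the 44 genes, 35 in all, and 6 of them (17.1%) hold the letters, beside 16.0% of all windows. A match is a description of letters and does not show binding.

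Wnt7b, Wnt6, Wnt4, Wnt9a and Wnt7a were the other ligands above the array median in some group. Wnt7b read 295 to 765 over the 16 arrays with a median of 518, and Wnt6 read 132 to 272 with a median of 173. Wnt7a read 60.6 to 159.8 with a median of 101. None of these 3 passed in any comparison. Their log2 differences between KO and control were -0.22 to 0.26 at day 4 and -0.14 to 0.20 at day 12.

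Wnt9a was the single gene of the 44 whose KO arrays all lay beyond its control arrays at day 4, where 5.5% of all entries were that far apart. Control cells read 77.9, 46.1, 14.4 and 59.4, and KO cells 91.7, 80.5, 108 and 113. Its difference was 1.22 ± 0.43 (limma adjusted p = 0.357), so it did not pass. At day 12 control cells read 61.7 to 96.0 and KO cells 63.8 to 125.5, and the difference was 0.17 ± 0.43. The other Wnt9a probe set, 1425889_at, had the opposite sign, at -0.37 ± 0.75 at day 4 and -1.14 ± 0.75 at day 12.

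Wnt4, known for roles in kidney and gonad development, read 68.1, 54.2, 43.1 and 153 in control cells at day 4 and 254, 235, 129.6 and 147 at day 12. KO cells read 68.3, 136, 202 and 179 at day 4, and 216, 253, 263 and 252 at day 12. KO exceeded control in 4 of 4 pairs at day 4 (0.95 ± 0.41, limma adjusted p = 0.522), with overlap. The higher values of day 12 did not pass either, at 1.39 ± 0.41 in control cells and 0.86 ± 0.41 in KO cells (limma adjusted p = 0.138 and 0.335). The other, dimmer Wnt4 probe set, 1441687_at, gave a KO difference of 0.40 ± 0.34 at day 4 and -0.155 ± 0.34 at day 12. Between the days it gave 0.93 ± 0.34 in control and 0.38 ± 0.34 in KO cells.

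The 12 dimmer ligands had highest group means of 21.5 (Wnt3) to 78.4 (Wnt3a). Wnt1, a ligand of midbrain and neural crest development, came nearest to the threshold in KO against control. At day 12 control cells read 7.73, 59.4, 9.67 and 5.65 and KO cells 44.6, 43.4, 70.7 and 46.1. The single bright control array, clone 10 replicate 2, overlapped the KO arrays. The difference was 1.99 ± 0.56 (limma adjusted p = 0.0843), 2.71 without that array (limma adjusted p = 0.00181) and 0.56 with all values under the floor raised to it, and the adjusted p ranged from 0.00181 to 0.849 over the alternatives. Wnt3a read 21.7 to 33.6 in control and 25.6 to 123 in KO cells at day 4, with a difference of 1.41 ± 0.55 (limma adjusted p = 0.442).

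Among the receptors, Fzd7, known as the Frizzled of pluripotent cells, was lower in KO cells at day 12. Control cells read 2315, 2454, 1911 and 2022 at day 4, and KO cells 1539, 2002, 1307 and 2052. At day 12 control cells read 2105, 2644, 1578 and 2113, and KO cells 1216, 1472, 1141 and 1299.6. The groups did not overlap at day 12, though the highest KO array and the lowest control array lay close, and they overlapped at day 4.

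Fzd7 fell by 0.70 ± 0.16 on the log2 scale in KO cells at day 12 (limma adjusted p = 0.0382), lower in 4 of 4 pairs, and the difference was -0.35 ± 0.16 at day 4 (limma adjusted p = 0.595). Since the groups did not overlap at day 12, fits of fewer arrays had to keep the direction there. It held in every alternative tried, at -0.82 to -0.58. The call did not: it was lost in 11 of the 16 fits that left out 1 array (limma adjusted p up to 0.126), and the adjusted p was 0.00245 to 0.831 over all alternatives. The second Fzd7 probe set, 1450043_at, gave -1.92 ± 0.67 at day 12 (limma adjusted p = 0.235 when every probe set was tested).

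The RefSeq promoter window of Fzd7 (GRCm38.p6, chr1:59481897-59482196, plus strand) is shown as that of the receptor that fell. It holds 24 CG pairs and no CTTTGA on either strand, so it has no capitals. Other forms of the core were not looked for, and the window does hold ACAAAG, which is CTTTGT on the other strand.
Fzd7: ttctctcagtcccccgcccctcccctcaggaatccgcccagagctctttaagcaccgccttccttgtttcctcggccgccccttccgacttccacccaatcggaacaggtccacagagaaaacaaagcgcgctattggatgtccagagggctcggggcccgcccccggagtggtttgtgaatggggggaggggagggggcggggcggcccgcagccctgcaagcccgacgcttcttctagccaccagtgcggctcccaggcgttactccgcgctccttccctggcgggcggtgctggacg
The median over the 35 windows of these genes was also 24 CG pairs.

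Fzd3, a receptor known for axon guidance and planar polarity, lay apart in the other direction. At day 12 control cells read 175, 136, 178 and 145, and KO cells 244, 276, 255 and 242. The groups did not overlap, and the difference of 0.69 ± 0.18 missed the threshold (limma adjusted p = 0.066). At day 4 control cells read 126.5, 162, 126.3 and 187 and KO cells 177, 188, 166 and 279.6, with overlap and a difference of 0.42 ± 0.18 (limma adjusted p = 0.531). At day 12 it passed in 5 of the alternatives, and the adjusted p ranged from 0.00596 to 0.856 over them. The 5 other Fzd3 probe sets gave differences of 0.05 to 1.21 at day 12, and none of them passed.

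Fzd6, which can restrain Wnt/beta-catenin signalling, read 92.0, 48.7, 89.9 and 83.7 in control and 137, 123, 142 and 138 in KO cells at day 12. The groups did not overlap there, but the difference of 0.82 ± 0.37 did not pass (limma adjusted p = 0.322). At day 4 control cells read 33.5 to 153.9 and KO cells 88.1 to 146.5, with full overlap. The dimmer Fzd6 probe sets 1448662_at and 1458904_at gave -0.06 ± 0.59 and 0.11 ± 0.98 at day 12. At day 4 they gave -0.41 ± 0.59 and -1.02 ± 0.98. In all, 3 of the 44 genes lay wholly higher (Fzd3, Fzd6 and Dkk1) and 2 wholly lower (Wnt5a and Fzd7) in KO cells at day 12, where 12.1% of all entries were that far apart.

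Fzd5 read 1848, 1374, 1198 and 1113 in control and 1192, 1149, 794.5 and 1034 in KO cells at day 12. KO was lower in 4 of 4 pairs, but the groups overlapped and the difference of -0.40 ± 0.12 did not pass (limma adjusted p = 0.128). Fzd2 read 282, 179, 238 and 143.5 in control cells at day 4 and 409, 346, 316 and 343 at day 12, without overlap. That difference of 0.79 ± 0.22 did not pass (limma adjusted p = 0.115), and KO cells read 151 to 234 at day 4 and 232.5 to 346 at day 12. Fzd2 probe set 1418532_at gave 0.87 ± 0.34 in control and 0.77 ± 0.34 in KO cells between the days. The dimmer probe set 1418534_at gave 0.20 ± 0.30 in control and, with the opposite sign, -0.50 ± 0.30 in KO cells.

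None of the remaining receptors passed. Lrp6, a co-receptor, read 809 to 1524 over the 16 arrays with a median of 973, and KO differed from control by 0.17 ± 0.18 at day 4 and -0.07 ± 0.18 at day 12. Fzd1 read 80.8 to 166, Fzd4 51.7 to 188.5 and Fzd10 95.5 to 219, with medians of 105.5, 144 and 159. Fzd8, Fzd9 and Lrp5 stayed under the array median in every group, with highest group means of 84.9, 85.3 and 67.0. Fzd8 was lower in KO cells in 4 of 4 pairs at day 4 (-1.41 ± 0.67, limma adjusted p = 0.611) and 0.36 ± 0.67 at day 12.

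Among the antagonists, Dkk1, which blocks the Lrp co-receptors, rose with time in KO cells and, at day 12, read higher in KO than in control cells. Control cells read 25.7, 35.6, 66.3 and 57.0 at day 4, and KO cells 22.5, 9.44, 23.8 and 40.8. At day 12 control cells read 65.3, 105, 42.9 and 86.1, and KO cells 229, 169.5, 222 and 172. The KO arrays of day 12 stood above all other arrays, whereas at day 4 each KO array lay below its control of the same clone and number, with 3 of the 4 under the floor.

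The KO difference of Dkk1 was -1.02 ± 0.40 at day 4 (lower in 4 of 4 pairs) and 1.46 ± 0.40 at day 12 (higher in 4 of 4 pairs), and neither passed (limma adjusted p = 0.452 and 0.0775). The difference between these effects was 2.48 ± 0.57 with an unadjusted p of 0.000812, and did not pass by limma (adjusted p = 0.816 over all entries). With values under the floor raised to it, the day 4 difference was -0.51 and that of day 12 stayed at 1.46 and passed (limma adjusted p = 0.0146, range 0.0146 to 0.636 over the alternatives). Within the arrays numbered replicate 1 the day 12 difference was 2.09, and within those numbered replicate 2 it was 0.84.

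The RefSeq promoter window of Dkk1 (GRCm38.p6, chr19:30549447-30549746, minus strand), the antagonist that rose from day 4 to day 12 in KO cells, is written in the direction of transcription with the same letters in capitals.
Dkk1: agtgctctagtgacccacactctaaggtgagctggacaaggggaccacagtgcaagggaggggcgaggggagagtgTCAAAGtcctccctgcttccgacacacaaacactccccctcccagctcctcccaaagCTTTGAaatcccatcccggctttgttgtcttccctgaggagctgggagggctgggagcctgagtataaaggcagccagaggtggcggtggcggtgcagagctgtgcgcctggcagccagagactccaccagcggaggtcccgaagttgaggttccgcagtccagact
It has 2 matches, beginning 174 and 117 bases before the start, and holds 9 CG pairs. Of the 35 windows only those of Dkk1 and 1 of the 4 windows of Lef1 hold 2 matches.

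Sfrp1, a secreted protein that binds Wnt ligands, read 1609, 736, 1368 and 1218 in control and 2247, 1146, 1995 and 1462 in KO cells at day 4. KO was higher in 4 of 4 pairs, with overlap, and the difference of 0.48 ± 0.25 did not pass (limma adjusted p = 0.6599). Sfrp2 read 404, 179, 305 and 195 in control and 476, 328, 481 and 253 in KO cells at day 4, a difference of 0.53 ± 0.28 (limma adjusted p = 0.672). At day 12 both differences were smaller, 0.14 ± 0.25 for Sfrp1 and -0.08 ± 0.28 for Sfrp2.

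Sfrp4 read 168 to 503 over the 16 arrays with a median of 309.8, and Dkk3, a Dkk protein that does not block Lrp, read 78.7 to 169 with a median of 122. Sfrp5 read 22.4 to 177 with a median of 100.2, and was 1.14 ± 0.44 higher in KO cells at day 4 on the log2 scale, higher in 3 of 4 pairs (limma adjusted p = 0.429). That difference was 0.11 within clone 10 alone and 2.18 within clone 15 alone. Frzb, under the array median throughout, read 2.48 to 12.0 in KO cells at day 4 and 10.3 to 58.4 at day 12. That difference of 2.79 ± 0.86 (limma adjusted p = 0.108) was 0.75 with values under the floor raised to it. Dkk2, Dkk4 and Wif1 had highest group means of 13.0, 32.1 and 19.5.

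The 3 intracellular genes did not pass in any comparison. Axin2, commonly read as a measure of pathway activity, read 254.5, 123, 145 and 44.9 in control and 271, 175, 373 and 121 in KO cells at day 4. KO was higher in 4 of 4 pairs, the groups overlapped, and the difference was 0.85 ± 0.45 (limma adjusted p = 0.673). With the replicate number as a block it was 0.85 ± 0.26 and did not pass either (limma adjusted p = 0.2085). At day 12 the control arrays read 188, 219.5, 119 and 179 and the KO arrays 164, 204, 179.5 and 256, a difference of 0.20 ± 0.45 (limma adjusted p = 0.901). The other, dimmer Axin2 probe set, 1421341_at, gave 0.09 ± 0.84 at day 4 and -0.18 ± 0.84 at day 12.

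Lef1, a DNA-binding partner of beta-catenin, read 236, 499, 166 and 475.5 in control and 138.5, 378, 115 and 209 in KO cells at day 4. It read 169, 210.4, 25.8 and 119.9 in control and 65.7, 88.1, 77.3 and 131 in KO cells at day 12. KO was lower in 4 of 4 pairs at day 4 (-0.72 ± 0.59, limma adjusted p = 0.874) and in 2 of 4 at day 12 (-0.23 ± 0.59). Day 12 was below day 4 in 4 of 4 pairs of each condition, at -1.60 ± 0.59 in control and -1.10 ± 0.59 in KO cells, and neither passed (limma adjusted p = 0.235 and 0.405). The other, dimmer Lef1 probe set, 1421299_a_at, gave -0.04 ± 0.38 in control and -0.56 ± 0.38 in KO cells between the days. Its KO difference was 0.15 ± 0.38 at day 4 and -0.37 ± 0.38 at day 12.

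Axin1 read 907, 504, 771 and 462 in control and 810.5, 466, 723 and 444 in KO cells at day 4. At day 12 it read 816, 913, 505 and 751 in control and 595, 876, 576 and 571 in KO cells. The KO differences were -0.11 ± 0.26 and -0.18 ± 0.26, each within the spread between arrays.

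Day 12 against day 4 asked how the genes changed with time in culture, first in control cells. There 1 of the 44 genes fell (Wnt5a) and 0 rose, with 10 at an unadjusted p under 0.05 beside 13.9% of all entries, where 0.995% of all entries were called, 0.654% higher and 0.341% lower. The median log2 difference of the 44 genes was 0.22, beside 0.02 over all entries, and 0.42 over the 19 ligands. Scaling to housekeeping genes moved the median over all entries to -0.10 and the calls from 119 higher and 62 lower to 92 higher and 150 lower. In KO cells 2 of the 44 rose (Dkk1 and Wnt11) and 1 fell (Wnt5a), with 8 at an unadjusted p under 0.05 beside 15.8% of all entries, where 3.27% of all entries were called, 2.24% higher and 1.03% lower. The median log2 difference there was 0.11, beside 0.02 over all entries, and housekeeping scaling moved the calls from 408 higher and 187 lower to 271 higher and 282 lower. Both comparisons are between arrays used above for KO against control.

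Wnt5a fell by 1.01 ± 0.16 on the log2 scale in control cells (limma adjusted p = 0.00987) and by 1.21 ± 0.16 in KO cells (limma adjusted p = 0.00156), in 4 of 4 pairs each. Its arrays of the days did not overlap in either condition. Probe set 1448818_at gave -1.20 and -1.46 (limma adjusted p = 0.00424 and 0.000597 when every probe set was tested). With only the control arrays fitted, the control call was lost (limma adjusted p = 0.1898, range 0.00211 to 0.833 over the alternatives).

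Dkk1 rose by 3.20 ± 0.40 on the log2 scale in KO cells (limma adjusted p = 0.00111), or 2.66 with values under the floor raised to it. In control cells the difference was 0.72 ± 0.40 (limma adjusted p = 0.465), with 3 of 4 pairs higher. Its second probe set, 1458232_at, gave 4.07 ± 0.83 in KO cells (limma adjusted p = 0.0282 when every probe set was tested). Wnt11 rose by 1.20 ± 0.26 in KO cells (limma adjusted p = 0.0239). Its difference in control cells was 1.16 ± 0.26 and just missed the threshold (limma adjusted p = 0.0537). The Wnt11 call in KO cells was lost in 5 of the 16 fits that left out 1 array (up to 0.0805) and with only the KO arrays fitted (limma adjusted p = 0.0713), and its adjusted p was 0.00615 to 0.688 over the alternatives.

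The sign was the same in 4 of 4 pairs for 6 of the 44 genes in control and 13 in KO cells, where 21.4% and 25% of all entries were alike in this way. Arrays of the days did not overlap for 2 genes higher (Wnt11 and Fzd2) and 1 lower (Wnt5a) in control cells, where 8.33% of all entries were that far apart. In KO cells this held for 5 genes higher (Dkk1, Wnt1, Wnt11, Wnt2b and Wnt4) and 1 lower (Wnt5a), where 11.4% of all entries were. Of those 5, Wnt1, Wnt2b and Wnt4 did not pass.

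**Figure D3:**
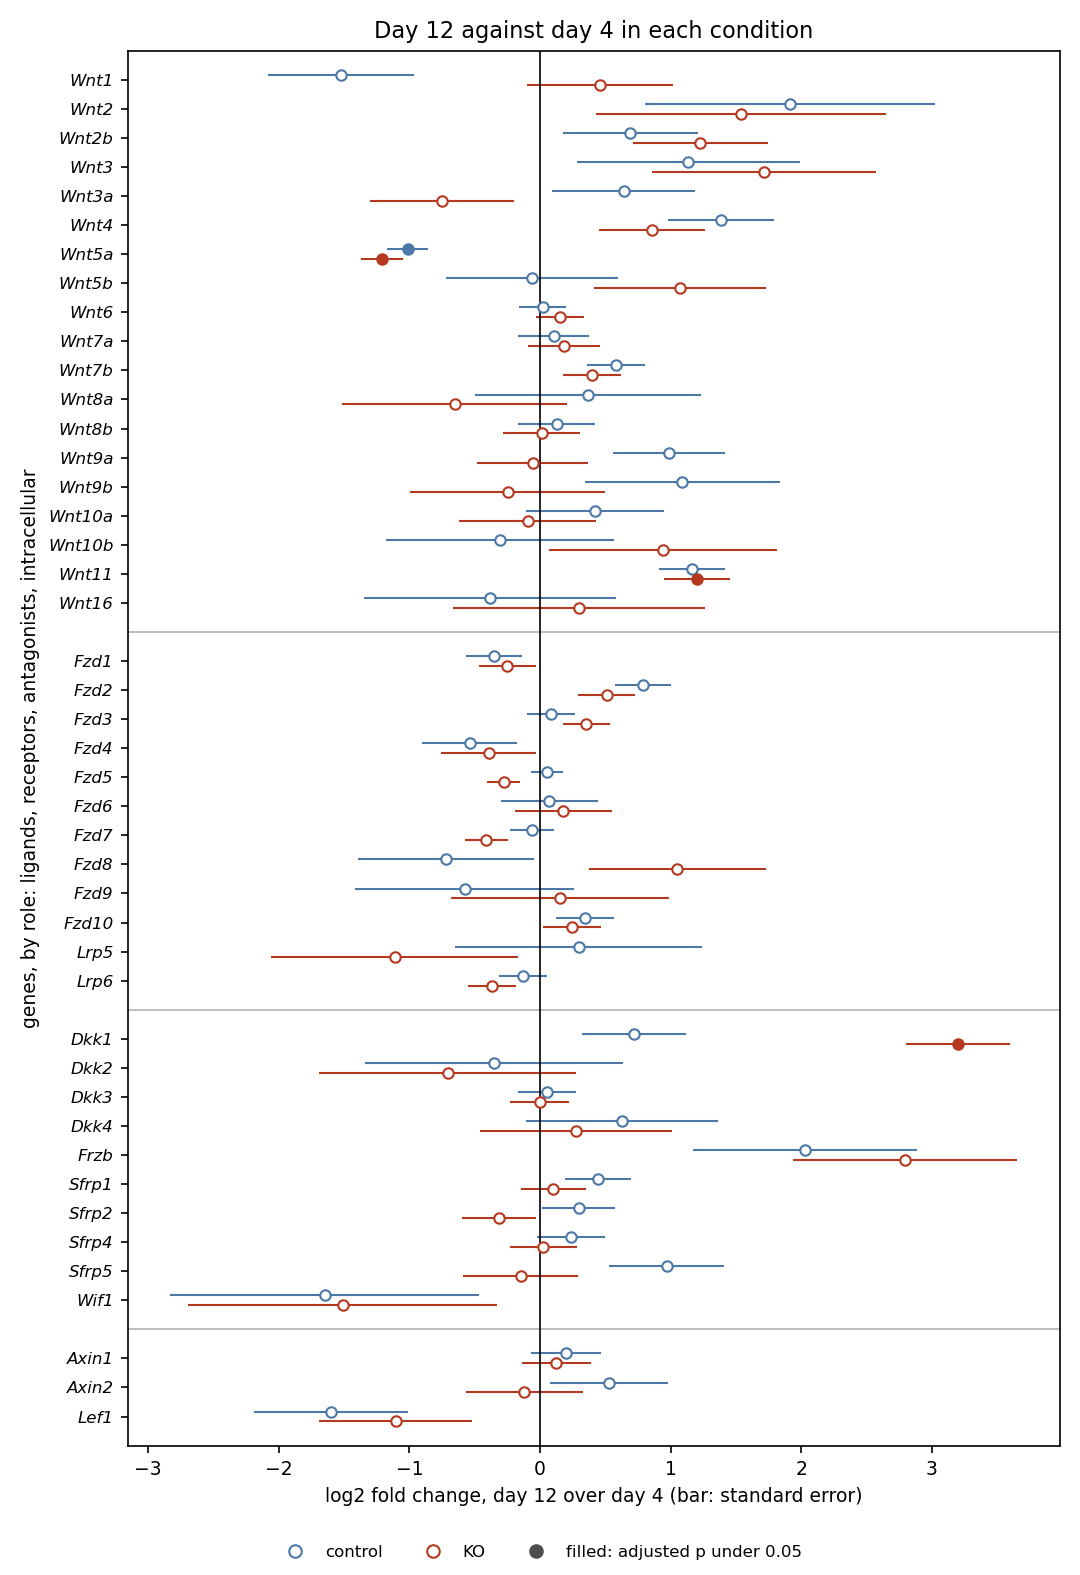
Log2 fold change of day 12 over day 4 for the 44 genes in control (blue) and KO cells (red), by role, with the standard error as a bar (4 arrays per group) and filled points at an adjusted p under 0.05. Wnt5a is filled on the left in both conditions (-1.01 and -1.21), and Dkk1 (3.20) and Wnt11 (1.20) are filled on the right for KO cells, and the difference between the conditions did not pass for either gene.

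Markers of primitive endoderm, an extra-embryonic cell type that can arise in ES cultures, rose with time, and 2 of them were higher in KO than in control cells at day 12. All 12 were measured, none with a group mean under the floor. Their summed intensity was 4546 to 9824 in control and 4785 to 10601 in KO cells at day 4, and 23215 to 37191 in control and 35470 to 52622 in KO cells at day 12. Of the 12, 7 rose with time in control cells and all 12 in KO cells (median log2 differences 2.26 and 3.004). Over all entries 0.654% and 2.24% rose in these comparisons. Amn (1.08) and Gata6 (0.98) passed in KO against control at day 12, where 2.19% of all entries were higher, with 0 at day 4. The part of primitive endoderm cells in the results for Dkk1, Wnt11, Wnt5a and Fzd7 was not tested. In bulk samples a change in the number of cells of a type and a change in RNA per cell cannot be told apart.

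Markers of other cell types were read in the same way. Over all entries 0.627% were called in KO against control at day 4 and 3.09% at day 12. Over time 0.995% were called in control and 3.27% in KO cells. Of 19 measured feeder fibroblast markers 0 passed in KO against control at either day and 1, Acta2, rose with time in each condition, with summed intensities of 13600 to 20594 on the 16 arrays and up to 2 markers under the floor in a group. Of 9 mesoderm and 8 neural markers 0 passed in these comparisons, with summed intensities of 461 to 666 and 763 to 1208 on the 16 arrays. Of 9 primed epiblast markers 1 fell in KO cells at day 12, Otx2 (-1.70), and their sum there was 7799 to 9546 beside 10063 to 12384 in control. Over time 1 of these 9 rose and 0 fell in control cells, and 1 rose and 2 fell in KO cells. Of the ES cell markers 1 fell in KO against control at day 12, Utf1 (-0.82), and 0 passed over time. The part of these cells in the results was not tested.

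At day 4 the arrays numbered replicate 1 and replicate 2 stood apart in both clones and both conditions. In a fit with clone and condition, replicate 2 differed from replicate 1 in 23.3% of all entries at day 4 and in 0.0055% at day 12. The labels do not say what the numbers share. Of the 44 genes, 7 differed between the numbers at day 4 and 0 at day 12. Lef1 was higher in replicate 2 (1.23), and Dkk3 (-0.53), Sfrp2 (-0.82), Axin1 (-0.77), Axin2 (-1.25), Fzd2 (-0.57) and Lrp5 (-2.59) were lower (limma adjusted p = 0.00399 to 0.0464). The 4 day 4 arrays of Axin1 numbered replicate 1 read 723 to 907 and those numbered replicate 2 read 444 to 504, whatever the condition. All 3 intracellular genes were among the 7.

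Within 1 number the genes called above kept their direction, as they had to, since the arrays of the groups compared did not overlap. In KO against control at day 12, Wnt5a was -0.89 within replicate 1 and -0.82 within replicate 2, and Fzd7 -0.63 and -0.77. Between the days in KO cells, Dkk1 was 3.28 and 3.12, and Wnt11 1.37 and 1.04. Between the days in control cells, Axin2 was -0.36 within replicate 1 and 1.42 within replicate 2. With the numbers of each day as a term, chosen after seeing the data, the genes called were Fzd3, Fzd5, Fzd7 and Wnt5a in KO against control at day 12 and Wnt5a at day 4.

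**Figure D4:**
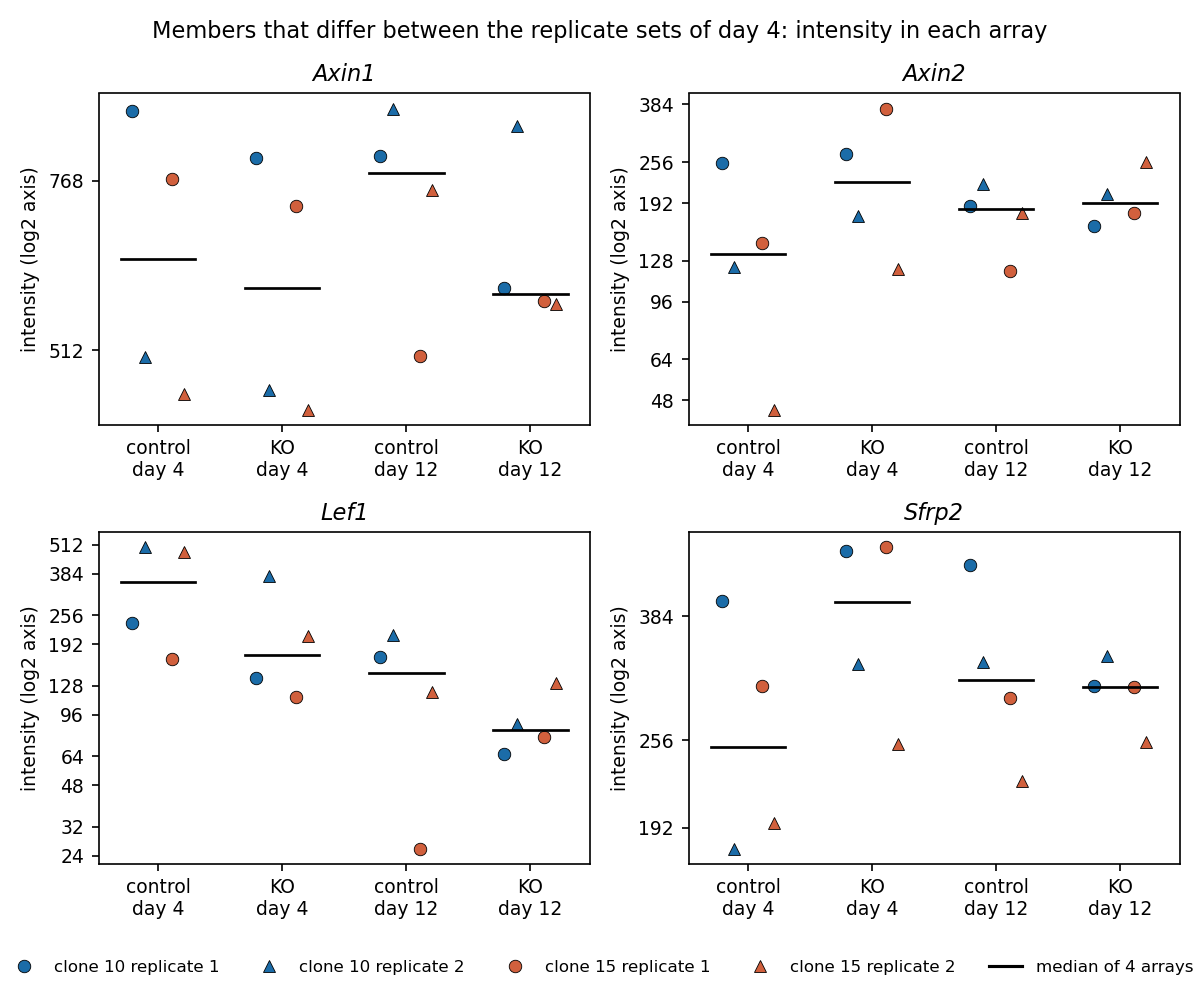
Intensity on each of the 16 arrays (log2 axis) for the 3 intracellular genes and Sfrp2, with colour for clone, shape for replicate number and a line for the median of 4 arrays. At day 4 Axin1, Axin2 and Sfrp2 read higher on circles (replicate 1) than on triangles (replicate 2) of the same clone and condition, and Lef1 reads lower.

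The clones were compared last. In control cells 0 of the 44 differed between clone 15 and clone 10, with 7 at an unadjusted p under 0.05 beside 5.21% of all entries, where 0.066% of all entries were called, 0.0385% higher and 0.0275% lower. The KO effect differed between the clones for 0 of the 44, with 5 at an unadjusted p under 0.05 beside 3.22% of all entries, where 0.0% of all entries were called. Within clone 10 alone Wnt5a was -0.62 and Fzd7 -0.82 in KO cells at day 12, and within clone 15 alone -1.09 and -0.58. Lef1 had opposite signs there, at -1.31 in clone 10 and 0.86 in clone 15, and neither passed.

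The 81 other measured genes of the pathway, in 5 lists, were read beside the members. At day 4, 0 passed in KO against control, with 6 at an unadjusted p under 0.05 beside 8.54% of all entries. At day 12, 0 rose and 2 fell, where 3.09% of all entries were called, 2.19% higher and 0.901% lower. Lgr4, a receptor for R-spondins that strengthens Wnt signalling, had group means of 1943 in control and 1362 in KO cells (-0.50 ± 0.12, limma adjusted p = 0.0375). Hbp1, a repressor of Tcf-driven transcription, had group means of 2919 and 2119 (-0.46 ± 0.10, limma adjusted p = 0.0289). The median log2 difference of the 81 genes was -0.03 at day 4 and -0.09 at day 12.

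Over time 1 of the 81 fell in control cells, where 0.995% of all entries were called. In KO cells 1 rose and 3 fell, where 3.27% of all entries were called. These genes were named after their values were seen. Tle4, a co-repressor that binds Tcf proteins, fell by 0.87 in control and by 0.80 in KO cells, and Lgr4 (-0.64) and Ror1 (-0.90), a receptor for Wnt5a, fell in KO cells. Dkkl1, a protein related to Dkk, rose by 2.94 in KO cells (limma adjusted p = 0.029), or by 2.64 with values under the floor raised to it.

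Of 27 measured target genes of Wnt/beta-catenin signalling, 0 passed in KO against control at day 4, and 3 passed as higher and 0 as lower at day 12. Of all entries 0.627% were called at day 4, and 2.19% were higher and 0.901% lower at day 12. Cdx2, a transcription factor of trophectoderm and posterior development, had group means of 7.34 in control and 46.7 in KO cells (2.55 ± 0.46, limma adjusted p = 0.0103), the first under the floor. With values under the floor raised to it the Cdx2 difference was 0.69 and did not pass (limma adjusted p = 0.212). Id2, an inhibitor of helix-loop-helix factors, had group means of 1153 and 2398 (1.10 ± 0.17, limma adjusted p = 0.00397). Tbx3, a transcription factor of naive ES cells, had group means of 374 and 860 (1.22 ± 0.23, limma adjusted p = 0.0133). These 3 also answer to other signals, and the median log2 difference of the 27 genes was 0.02 at each day. Over time the list had 1 gene lower in control cells, Cdx2, at -2.76, or -0.58 and not past the threshold with values under the floor raised to it (limma adjusted p = 0.348). In KO cells it had 1 higher (Msx2, 1.67) and 1 lower (Gbx2, -0.93). Of all entries 0.341% were lower over time in control cells, and 2.24% were higher and 1.03% lower in KO cells.

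**Figure D5:**
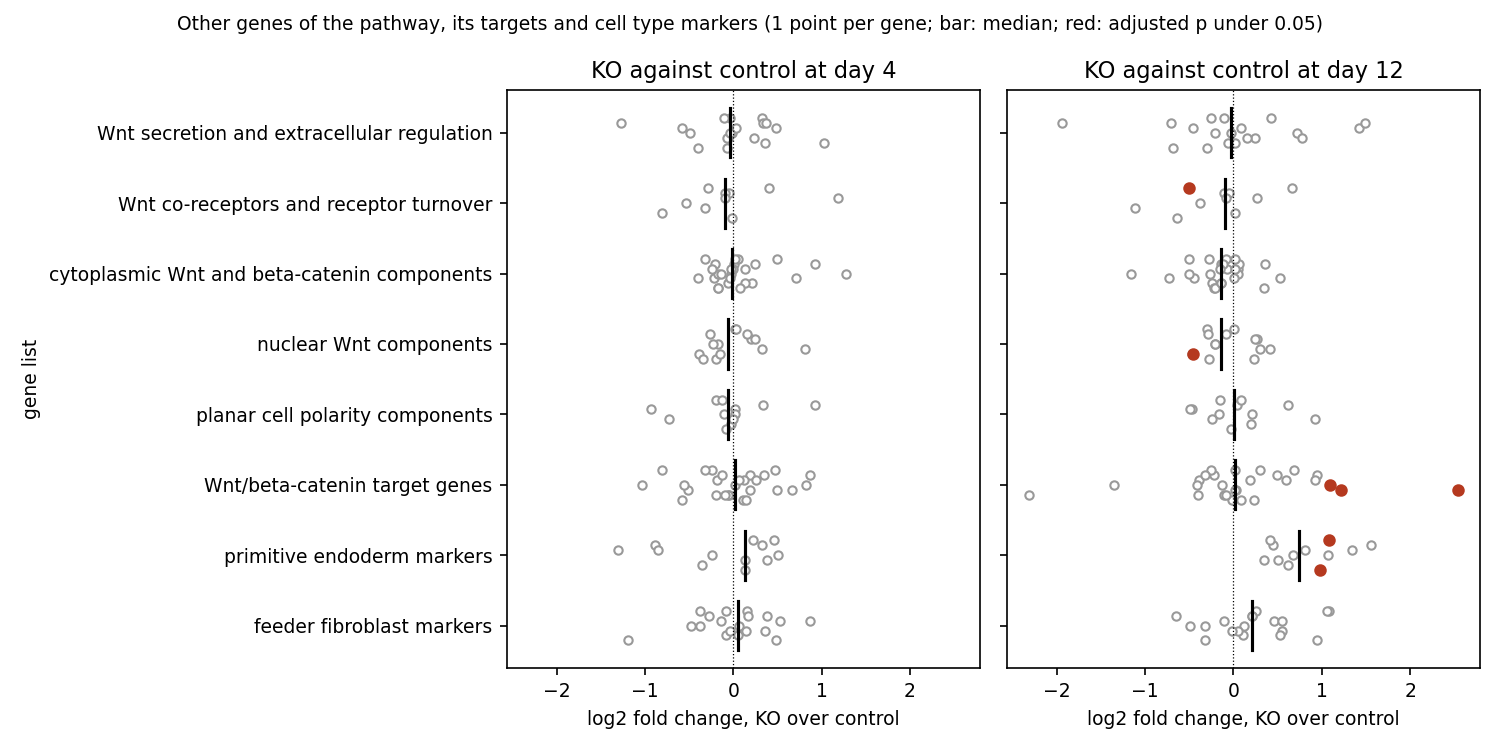
Log2 fold change of KO over control at day 4 (left) and day 12 (right) for the other genes of the pathway, target genes and 2 marker lists, with 1 point per gene, a bar for the list median and red for an adjusted p under 0.05. At day 12 the primitive endoderm points all lie right of 0 (median 0.74), whereas the medians of the 5 pathway lists lie between -0.14 and 0.01.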

How the data were processed

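Biotin-labelled cRNA made from Trizol-extracted total RNA was put on Affymetrix arrays, per the labels' protocols. The table holds 45101 probe sets, although the design text speaks of the smaller 430A 2.0 array. The deposited values are linear intensity made with Affymetrix Expression Console and RMA, per the submitters' processing notes. All 16 arrays hold the same sorted values, so they were quantile-normalized before deposit. A linear scale had not been planned for, and log2 was taken with no offset. How precise a value is depends on how many arrays there are.

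The platform annotation gave the names: 34945 probe sets had 1 symbol, 932 several and 9160 none. The probe set with the highest mean log2 stood for each gene, and 2 Rybp probe sets were added, 18195 entries in all. limma 3.58.1 (R 4.3.3) fitted group (4 levels) and clone to all 16 arrays, with Benjamini-Hochberg adjustment over all entries and a threshold of 0.05. Clone contrasts came from clone-and-group means. The fit was tested on simulated data. Every gene of the set is counted, with array values or ranges for those past the threshold or above the array median and for those near it. Outside the set, listed genes past the threshold and markers are named. The members and the gene lists were chosen with earlier results of these data known.

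Same-numbered control and KO arrays deviated together at day 4, with correlations of 0.12 to 0.17, each above 0.1, and at day 12 with correlations of 0.03 to 0.05. The numbers were therefore taken to pair the arrays at day 4 only, from the data and not from the labels. A shift between the numbers that both clones share would also give such correlations, so they do not show pairing within a clone. Values given for single genes at day 4 came from the fit without this pairing unless stated, and standard errors can differ with it. Promoter windows came from RefSeq (GRCm38.p6), and all 44 genes matched its gene table by Entrez identifier.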

Additional observations from a re-analysis of the deposited data

Results flagged for a closer look

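In Dkk1 the estimated KO difference had opposite signs at day 4 and day 12, and neither difference passed. Most KO arrays of day 4 were under the floor, and with values under the floor raised to it the day 4 difference was -0.51. All 4 matched pairs were lower in KO cells at day 4 and all 4 were higher at day 12, a difference of 2.48 on the log2 scale that did not pass by limma (adjusted p = 0.816).

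A single array lay far from the other 3 of its group in 4 of the 100 groups of 4 arrays looked at (25 genes above the array median), where chance gives about 1 in 20. Axin1 read 876 on clone 10 replicate 2 of the KO cells at day 12, and the other 3 arrays read 571 to 595. Wnt11 read 204 on the same array, and the others read 290.4 to 304. Fzd6 read 48.7 on clone 10 replicate 2 of the control cells at day 12, beside 83.7 to 92.0. Sfrp5 read 93.4 on clone 10 replicate 1 of the control cells at day 12, beside 105.8 to 108.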

How the results depend on the processing

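Counts of the 44 genes past the threshold moved as follows. Moves that are small for the count, such as from 2 to 3, are not all listed. At day 12, for example, Fzd3 passed in KO against control in 5 of the alternatives and Dkk1 in 3. In KO against control at day 4 the count of 0 became 1 with dim genes left out and with the replicate numbers of each day as a term (both Wnt5a), and 0 to 1 without single arrays. At day 12 the count of 2 became 4 with values under the floor raised to it and 4 with the replicate numbers as a term. It became 1 with every probe set tested, 1 without the clone term, 1 with only the arrays compared, and 1 to 2 without single arrays. In control cells between the days the count of 1 became 2 with the replicate block, the floor, log2(value + 16), the intensity trend or no clone term, 3 with dim genes left out, 4 with the replicate numbers as a term, 0 with only the arrays compared, and 1 to 2 without single arrays. In KO cells between the days the count of 3 became 5 with the replicate numbers as a term. Wnt11 was lost there without any 1 of 5 KO arrays (limma adjusted p up to 0.0805) and with only the KO arrays compared (limma adjusted p = 0.0713). Each clone alone and each replicate number alone gave 0 in each of these last 3 comparisons. Such small fits made few calls at all: in KO against control at day 12 clone 10 alone called 34 entries higher and 3 lower, and clone 15 alone 0 (1252 at an unadjusted p under 0.05). Between the clones in control cells the count of 0 became 1 without control day 12 clone 10 replicate 1 (Wnt1), a range of 0 to 1. The differences of KO effects between days and between clones stayed at 0 of the 44 in every alternative. Of the gene results, the 15 with an adjusted p under 0.15 were followed through the alternatives, and none of these changed sign. Of the 44 genes, 20 to 28 changed sign in at least 1 alternative of a given comparison, none of those had been past the threshold as first fitted, and none passed with the opposite sign.

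At day 12 the numbers were not taken to pair the arrays. There the replicate block also put Fzd3 past the threshold (limma adjusted p = 0.0141), and called 852 entries higher and 627 lower in place of 399 and 164, and it changed no other member's call within a day. Between the days it put Wnt11 past the threshold in control cells (limma adjusted p = 0.0237) and called 213 higher and 133 lower in place of 119 and 62. The terms for replicate numbers, and fits of each number alone, were added after seeing the data.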
